A study of Mus musculus with 2 samples.

Results

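The 32 genes described here make the building blocks of DNA or copy it: 11 enzymes of purine synthesis, 4 of pyrimidine synthesis, 4 that supply deoxynucleotides, the 6 subunits of the replicative helicase, and 7 that load, activate or work with the replication machinery. They were chosen by symbol among the 32285 genes of the count tables, and all 32 were found. Their levels were measured in tumours grown under the skin of 5-week-old BALB/c mice, all labelled wild type, from CT26, a colorectal carcinoma line of the mouse. In the treated group, WQ-2101, a compound that the series title ties to inhibition of PHGDH, was injected into the peritoneum daily at 20 mg/kg from a tumour volume of about 100 mm³, and the vehicle group received vehicle alone. Tumours were taken on day 17 after implantation and dissociated without a recorded sort. There was 1 droplet 3' library per group, of the same batch label. How many mice each library holds is not stated in the labels, so no value below has an error between animals, no test of the treatment was possible, and each interval covers counting error only.

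De novo synthesis builds purine and pyrimidine rings on or for phosphoribosyl pyrophosphate, and ribonucleotide reductase then turns ribonucleotides into the deoxynucleotides that polymerases use. PHGDH, the first enzyme of serine synthesis, lies upstream because serine and glycine carry carbon into the purine ring and, through folates, into thymidylate. The helicase is loaded on origins before S phase and activated when S phase begins, and factors of the E2F family are known to drive many replication genes at that point of the cell cycle.

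The promoters of a few of these genes are shown because so many of the genes are known as E2F targets. RefSeq windows of GRCm38.p6, running from 250 bases before to 50 after the start site, were held for 27 of the 32 genes, and Pfas, Dhodh, Mcm4, Gins1 and Gins2 had no entry. E2F-type letters (TTTCCCGC, TTTCGCGC, TTTGCCGC or TTTGGCGC, on either strand) stood in the windows of 9 of the 27, against 2.32% of all 27025 windows. Those 9 were Mcm3, Mcm5, Mcm6, Mcm7, Cdc6, Pola1, Hells, Ppat and Prps2, so 7 of the 10 matched helicase and replisome genes held the letters, and none of the 4 genes of deoxynucleotide supply did. The E-box CACGTG stood in 5 windows (Paics, Atic, Impdh2, Tyms and Nme1), against 7.24% of all windows. The box CCAAT, on either strand, stood in 15, against 37.9%. Below are stretches of 120 bases before the start sites of Mcm5 (chr8:75109300-75109419, plus strand), Mcm6 (chr1:128359706-128359825, minus strand) and Pola1 (chrX:93632234-93632353, minus strand), shown because they hold E2F-type letters, and of Rrm1 (chr7:102441575-102441694, plus strand), which holds none and is among the genes that differ most between cycling and non-cycling cells. Each reads 5′ to 3′ on its gene's strand, and capitals mark E2F-type letters and CCAAT or its reverse complement ATTGG.
Mcm5: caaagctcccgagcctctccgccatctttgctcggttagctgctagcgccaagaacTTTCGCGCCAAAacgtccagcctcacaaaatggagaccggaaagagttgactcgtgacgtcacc
Mcm6: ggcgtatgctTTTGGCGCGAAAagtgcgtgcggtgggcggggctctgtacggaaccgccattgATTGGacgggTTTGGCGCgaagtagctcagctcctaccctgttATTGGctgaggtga
Pola1: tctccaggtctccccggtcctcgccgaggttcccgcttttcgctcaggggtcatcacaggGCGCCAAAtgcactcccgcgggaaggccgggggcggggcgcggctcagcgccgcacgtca
Rrm1: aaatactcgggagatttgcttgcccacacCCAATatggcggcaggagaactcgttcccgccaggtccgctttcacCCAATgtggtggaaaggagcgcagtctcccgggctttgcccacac
In Mcm5 and at the far end of the Mcm6 stretch, matches on both strands overlap into 1 longer run. The letters are a description and do not show that a factor binds there.

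The libraries held 18142 barcodes with 185587327 UMIs for WQ-2101 and 14374 barcodes with 184754398 UMIs for vehicle, of which 17293 and 13668 cells were kept, 61 barcodes being shared between the libraries. Cells were put in a class by marker genes and called cycling with at least 2 UMIs of Mki67 and Top2a, both proliferation markers, and non-cycling with 0. The tumour gate rested on Hmga2, Igf2bp2 and Igf2bp3, since the epithelial genes Krt8, Krt18 and Cldn4, listed as markers of a carcinoma, were nearly absent, with 8 and 4 UMIs of Krt8, 1 and 1 of Krt18 and 0 and 0 of Cldn4 in all tumour cells of WQ-2101 and vehicle, although Krt14, another keratin, had 199 and 89.4 CPM. By this gate there were 8632 and 6611 tumour cells, 3235 and 3931 macrophages or monocytes and 450 and 433 T cells, with 1843 and 1759 tumour cells, 1937 and 2444 macrophages and 330 and 294 T cells called non-cycling. Cycling cells were 64.4% (63.4 to 65.4, 5558 of 8632) of WQ-2101 and 60.2% (59.0 to 61.4, 3980 of 6611) of vehicle tumour cells, 20.9% (19.5 to 22.4, 677 of 3235) and 18.9% (17.7 to 20.2, 744 of 3931) of macrophages, and 15.1% (11.9 to 18.8, 68 of 450) and 15.5% (12.2 to 19.2, 67 of 433) of T cells. The shares moved with depth: median UMIs of cycling tumour cells were 16073 in WQ-2101 and 20292 in vehicle, and with each cell thinned to 3000 UMIs the cycling share was 39.2% and 35.2% of tumour cells, after leaving out 188 and 52 shallower ones. Levels are given as counts per 1000000 UMIs of the summed class (CPM), without division by gene length, so each gene is compared only with itself.

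The members split by role between cycling and non-cycling tumour cells. Over both libraries, the ribonucleotide reductase subunits and thymidylate synthase were 3.76 to 8.68 times as high in cycling cells, the replisome genes 1.98 to 5.25 times, the helicase subunits 1.39 to 2.68 times, and the enzymes that build the purine and pyrimidine rings 0.879 to 1.67 times. Past 1.5-fold in CPM plus 5 were 16 of 32 members in WQ-2101 and 16 of 32 in vehicle, against 5.25% and 5.35% of all genes with a mean of at least 5 CPM. The median member log2 ratio was 0.59 in WQ-2101 and 0.59 in vehicle, where the median of all such genes was -0.01 and -0.04. Cycling cells also had more UMIs than non-cycling cells (medians 16073 and 10027 in WQ-2101, 20292 and 11858 in vehicle), and when cells were thinned to 3000 UMIs and called again on the thinned counts, an alternative chosen after seeing the data, 11 members in WQ-2101 and 10 in vehicle passed 1.5-fold, against 4.17% and 4.56% of all genes called the same way. Those that no longer passed were Umps, Mcm4, Mcm6, Mcm7 and Gins2 in WQ-2101, and Prps1, Umps, Mcm3, Mcm4, Mcm7 and Gins2 in vehicle.

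Among the genes of deoxynucleotide supply, Rrm2, the small subunit of ribonucleotide reductase and known to be made in S phase, differed most. It had 48.6 CPM in cycling and 6.39 CPM in non-cycling cells of the WQ-2101 library, and 66.0 CPM in cycling and 7.60 CPM in non-cycling cells of the vehicle library. Its cycling over non-cycling ratio was 7.60 (6.33 to 9.19) in WQ-2101 and 8.68 (7.42 to 10.2) in vehicle. Rrm1, the large subunit of the same enzyme, had 119 CPM in cycling and 29.3 CPM in non-cycling cells of the WQ-2101 library, and 134 CPM in cycling and 33.4 CPM in non-cycling cells of the vehicle library. Its ratio was 4.07 (3.73 to 4.44) in WQ-2101 and 4.01 (3.72 to 4.33) in vehicle, about the same in both libraries and below that of Rrm2. Tyms, thymidylate synthase, had a ratio of 3.76 (3.43 to 4.14) in WQ-2101 and 3.88 (3.57 to 4.23) in vehicle. Nme1, a nucleoside diphosphate kinase that passes phosphate to all nucleotides, stood apart from the other 3, with 383 CPM in cycling and 268 CPM in non-cycling cells of the WQ-2101 library, and 435 CPM in cycling and 288 CPM in non-cycling cells of the vehicle library. Its ratio was only 1.43 (1.39 to 1.47) in WQ-2101 and 1.51 (1.47 to 1.55) in vehicle, and it is uncertain here because its close paralogue Nme2 may share reads with it.

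All 7 replisome and loading genes passed 1.5-fold in tumour cells of both libraries. Cdc6, which loads the helicase on origins, was the most unequal of them, with 19.5 CPM in cycling and 3.71 CPM in non-cycling cells of the WQ-2101 library, and 20.5 CPM in cycling and 4.34 CPM in non-cycling cells of the vehicle library, and a ratio of 5.25 (4.13 to 6.78) in WQ-2101 and 4.72 (3.82 to 5.88) in vehicle. Gins1 and Gins2, parts of the complex that activates the loaded helicase, had ratios of 3.03 (2.56 to 3.62) in WQ-2101 and 2.81 (2.41 to 3.31) in vehicle for Gins1, and 1.98 (1.79 to 2.2) in WQ-2101 and 2.27 (2.07 to 2.49) in vehicle for Gins2. Cdc45, their partner in activation, had a ratio of 2.37 (2.18 to 2.59) in WQ-2101 and 2.53 (2.33 to 2.76) in vehicle. Hells, a chromatin remodeller of the SNF2 family, had 109 CPM in cycling and 39.7 CPM in non-cycling cells of the WQ-2101 library, and 124 CPM in cycling and 45.9 CPM in non-cycling cells of the vehicle library, a ratio of 2.75 (2.55 to 2.97) in WQ-2101 and 2.70 (2.53 to 2.89) in vehicle. Pola1, the catalytic subunit of the polymerase that starts DNA strands, and Pcna, the sliding clamp, stayed plainly detected in non-cycling cells. Pola1 had 173 CPM in cycling and 76.8 CPM in non-cycling cells of the WQ-2101 library, and 176 CPM in cycling and 75.8 CPM in non-cycling cells of the vehicle library. Pcna had 184 CPM in cycling and 92.7 CPM in non-cycling cells of the WQ-2101 library, and 207 CPM in cycling and 105 CPM in non-cycling cells of the vehicle library.

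The 6 helicase genes overlapped the lower replisome genes and lay below the ribonucleotide reductase subunits. Their ratios ran at 1.56 to 2.68 in WQ-2101 and 1.39 to 2.56 in vehicle tumour cells. Mcm5 had the highest, with 108 CPM in cycling and 40.2 CPM in non-cycling cells of the WQ-2101 library, and 112 CPM in cycling and 43.5 CPM in non-cycling cells of the vehicle library. Mcm6 had the lowest together with Mcm2, with 134 CPM in cycling and 85.9 CPM in non-cycling cells of the WQ-2101 library, and 158 CPM in cycling and 113 CPM in non-cycling cells of the vehicle library. Non-cycling tumour cells kept a large part of the helicase transcript level of cycling cells. The 6 genes summed to 622 CPM in cycling and 318 CPM in non-cycling cells of WQ-2101, and to 692 and 384 CPM in vehicle. A count of 0 of Mki67 and Top2a does not show absence, so non-cycling names a count here and not a proven state of the cell.

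The 11 purine enzymes had cycling over non-cycling ratios of 0.925 to 1.67 in WQ-2101 and 0.879 to 1.62 in vehicle tumour cells, and 0 of 11 in WQ-2101 and 1 of 11 in vehicle, Prps1, passed 1.5-fold in CPM plus 5. Pfas, which adds nitrogen midway through the pathway, and Prps1, which makes phosphoribosyl pyrophosphate, had the highest, 1.67 and 1.62 for Pfas and 1.5 and 1.58 for Prps1 in WQ-2101 and vehicle. Gmps, which completes GMP, had 162 CPM in cycling and 147 CPM in non-cycling cells of the WQ-2101 library, and 195 CPM in cycling and 170.0 CPM in non-cycling cells of the vehicle library. Paics, a bifunctional enzyme of the middle steps, was as flat, with ratios of 1.08 (1.03 to 1.12) in WQ-2101 and 1.15 (1.10 to 1.20) in vehicle. Impdh1 and Impdh2 catalyse the same step towards guanine nucleotides and were unlike: Impdh2 had a ratio of 1.37 (1.31 to 1.43) in WQ-2101 and 1.47 (1.41 to 1.53) in vehicle, whereas Impdh1, the only member below its non-cycling level in tumour cells, had 0.925 (0.817 to 1.05) in WQ-2101 and 0.879 (0.784 to 0.989) in vehicle, the interval in WQ-2101 reaching past 1. The 4 pyrimidine enzymes lay at 1.21 to 1.61 in WQ-2101 and 1.24 to 1.66 in vehicle. Umps, which completes UMP, was the highest of them, with 47.0 CPM in cycling and 29.2 CPM in non-cycling cells of the WQ-2101 library, and 45.9 CPM in cycling and 27.6 CPM in non-cycling cells of the vehicle library. Cad, which carries out the opening steps, had 1.48 and 1.38, Ctps, which makes CTP, had 1.21 and 1.28, and Dhodh, the mitochondrial enzyme of the pathway, had 1.21 and 1.24, in WQ-2101 and vehicle. In the GENCODE vM21 annotation Ppat and Paics start on opposite strands with overlapping ends, and Prps2, Gart, Impdh2, Umps, Mcm7, Cdc45 and Gins2 overlap another gene on the other strand, and whether counting used the strand is not stated.

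**Figure D1:**
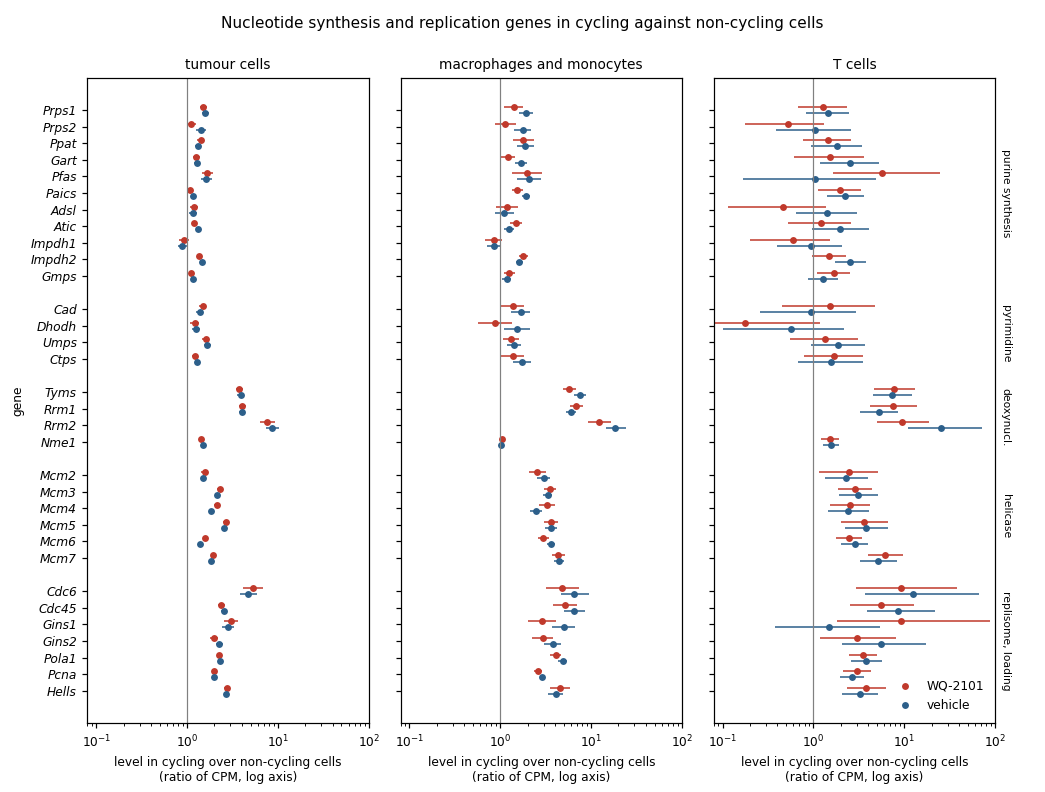
Ratio of the level in cycling cells over that in non-cycling cells for each of the 32 genes, on a log axis, in tumour cells, macrophages and monocytes, and T cells. Points are the WQ-2101 (red) and vehicle (blue) libraries and bars are 95% counting intervals, drawn only between 0.08 and 100. In tumour cells Rrm2 lies farthest to the right (7.60 and 8.68 in WQ-2101 and vehicle) and the purine enzymes lie near 1.

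Genes of the same processes outside the 32 gave a like picture. Of 33 measured genes of nucleotide salvage, folate use and related steps, 8 in WQ-2101 and 9 in vehicle passed 1.5-fold higher in cycling tumour cells, with median log2 ratios of 0.21 and 0.21. Of 47 other replication genes, 39 and 38 did, with medians of 1.00 and 0.95.

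In macrophages and monocytes the members again split by role. Rrm1, Rrm2, Tyms and all 6 helicase genes had higher ratios there than in tumour cells of the same library, a difference that was not tested. Other members went the other way, among them Nme1 in both libraries. In WQ-2101 so did Cdc6, at 4.81 against 5.25 in tumour cells, and Gins1, at 2.88 against 3.03. Cycling macrophages were also shallower than cycling tumour cells, with median UMIs of 9063 against 16073 in WQ-2101 and 11478.5 against 20292.5 in vehicle. The part of depth was not tested. Past 1.5-fold were 18 of 32 members in WQ-2101 and 23 of 32 in vehicle, against 7.85% and 7.38% of all genes. Rrm2 had 62.5 CPM in cycling and 5.08 CPM in non-cycling cells of the WQ-2101 library, and 74.4 CPM in cycling and 4.02 CPM in non-cycling cells of the vehicle library, a ratio of 12.3 (9.28 to 16.6) in WQ-2101 and 18.5 (14.4 to 24.2) in vehicle. Rrm1 had a ratio of 6.84 (5.79 to 8.11) in WQ-2101 and 5.96 (5.25 to 6.77) in vehicle, and Tyms of 5.76 (4.84 to 6.89) in WQ-2101 and 7.46 (6.41 to 8.72) in vehicle. The helicase genes had ratios of 2.54 to 4.36 in WQ-2101 and 2.46 to 4.41 in vehicle, all 6 past 1.5-fold in both libraries. Mcm7 was the most unequal of them, with 93.8 CPM in cycling and 21.5 CPM in non-cycling cells of the WQ-2101 library, and 87.5 CPM in cycling and 19.8 CPM in non-cycling cells of the vehicle library. The 7 replisome genes also all passed, at 2.61 to 5.13 and 2.91 to 6.53. Nme1 had close levels in both states of macrophages, with 263 CPM in cycling and 252 CPM in non-cycling cells of the WQ-2101 library, and 340.1 CPM in cycling and 330.2 CPM in non-cycling cells of the vehicle library. Impdh1 was again below its non-cycling level, with ratios of 0.844 (0.677 to 1.05) in WQ-2101 and 0.850 (0.722 to 0.997) in vehicle, the interval in WQ-2101 again reaching past 1. Of the 11 purine enzymes, 2 in WQ-2101 (Impdh2 and Ppat) and 7 in vehicle passed 1.5-fold in CPM plus 5, and none of the 4 pyrimidine enzymes did. Without the added 5, Pfas had a ratio of 1.97 and Paics of 1.55 in WQ-2101. The pyrimidine ratios in vehicle were then 1.74 for Ctps, 1.68 for Cad, 1.54 for Dhodh and 1.42 for Umps. In WQ-2101 they were 1.38 for Ctps, 1.36 for Cad, 0.876 for Dhodh and 1.31 for Umps.

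Tumour RNA in these droplets was measurable. The summed level of Hmga2, Igf2bp2 and Igf2bp3 was 68.5 CPM in cycling and 58.8 CPM in non-cycling macrophages of WQ-2101 and 52.0 and 45.4 CPM in those of vehicle, against 1439 CPM in cycling tumour cells of WQ-2101 and 1389 CPM in those of vehicle. Its part in the macrophage values was not tested. Neutrophils, which do not divide once mature, gave a comparison for replication genes, from few UMIs: the 6 helicase genes summed to 136 CPM (54.8 to 281, 7 UMIs in 48 cells) in WQ-2101 and 71.4 CPM (30.8 to 141, 8 UMIs in 110 cells) in vehicle. In non-cycling macrophages the same sum was 121 and 127 CPM, within those intervals, so it could not be told from the neutrophil level at this depth. Non-cycling neutrophils had a median of 850 UMIs in WQ-2101 and 970.5 in vehicle, against 5721 and 6670 in non-cycling macrophages. In cycling macrophages the helicase genes summed to 411 and 437 CPM, above the neutrophil intervals.

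**Figure D2:**
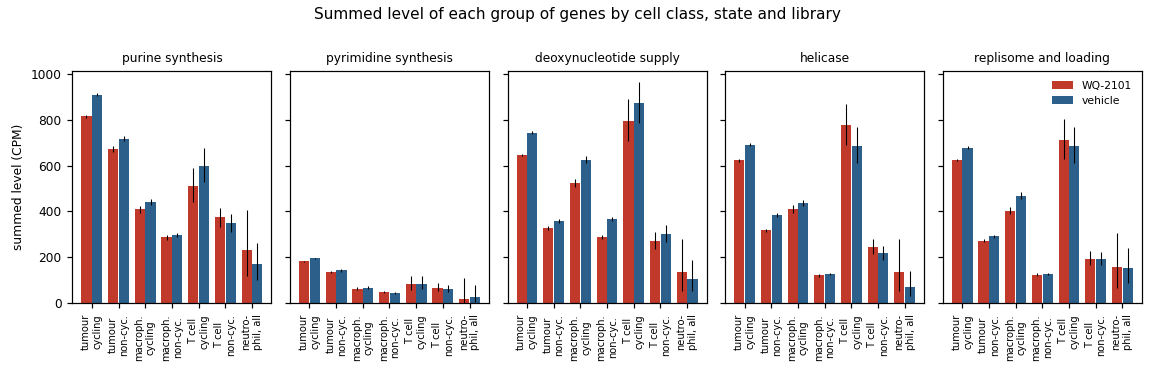
Summed level (CPM) of the genes of each role in cycling and non-cycling tumour cells, macrophages and monocytes, T cells, and all neutrophils. Bars are the WQ-2101 (red) and vehicle (blue) libraries and black lines are 95% Poisson intervals. The helicase genes sum to 622 and 692 CPM in cycling tumour cells of WQ-2101 and vehicle and to 121 and 127 CPM in non-cycling macrophages.

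T cells were few, with 68 cycling cells in WQ-2101 and 67 in vehicle, and their intervals were wide. Past 1.5-fold higher in cycling T cells were 21 of 32 members in WQ-2101 and 22 of 32 in vehicle, against 19.8% and 17.2% of all genes. Past 1.5-fold lower were 4 in WQ-2101 (Adsl, Impdh1, Prps2 and Dhodh) and 0 in vehicle, against 13.4% and 13% of all genes. Rrm2, Cdc6 and Tyms were again among the highest ratios. Rrm2 had 141 CPM in cycling and 15.1 CPM in non-cycling cells of the WQ-2101 library, and 165 CPM in cycling and 6.51 CPM in non-cycling cells of the vehicle library, a ratio of 9.33 (5.02 to 18.7) in WQ-2101 and 25.4 (11.1 to 71.4) in vehicle. Cdc6 had ratios of 9.16 (2.95 to 37.6) in WQ-2101 and 12.5 (3.65 to 66.3) in vehicle, and Tyms of 7.74 (4.70 to 13.3) in WQ-2101 and 7.34 (4.57 to 12.2) in vehicle. All 6 helicase genes passed in both libraries. Purine synthesis in cycling T cells summed to 513 and 599 CPM in WQ-2101 and vehicle, and in non-cycling T cells to 374 and 349 CPM. The helicase genes summed to 776 and 685 CPM in cycling T cells and to 622 and 692 CPM in cycling tumour cells. Per UMI, cycling T cells thus lay above cycling tumour cells in WQ-2101 and close to them in vehicle. Cycling T cells were shallower, with medians of 5083.5 and 5939 UMIs, against 16073 and 20292.5 in cycling tumour cells. The part of depth in the comparison of classes was not tested. Purine enzymes were lower in cycling T cells than in cycling tumour cells, where they summed to 815 and 909 CPM. Pyrimidine enzymes were lower too, at 82.4 and 85.9 CPM in cycling T cells, 62.7 and 68.5 CPM in cycling macrophages and 183 and 196 CPM in cycling tumour cells. In each other class there were at most 22 cycling cells in a library, and the states were not compared in them.

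Mki67 and Top2a mark the later part of the cell cycle, so cycling tumour cells were split within each library into tertiles by their share of UMIs from 19 genes of G2 and mitosis, none of them a member. Of the 32 members, 26 in WQ-2101 and 22 in vehicle were highest in the low tertile. The share of all genes highest there is not given here, so these counts are not shown to be particular to the members. Among the members highest in the low tertile were the helicase genes, Cdc6 and most purine and pyrimidine enzymes. Rrm1, Rrm2 and Tyms peaked in the middle tertile, and most purine and pyrimidine enzymes varied less than the helicase genes. In the low, middle and high tertiles, Cdc6 had 30.2, 19.0 and 10.6 CPM in the WQ-2101 library and 35.4, 19.9 and 8.45 CPM in the vehicle library. Its low over high ratio was 2.84 (2.51 to 3.22) in WQ-2101 and 4.19 (3.65 to 4.83) in vehicle, the highest of the 32 in both libraries. Gins2 was also highest in the low tertile, with 58.6, 40.7 and 28.3 CPM in the WQ-2101 library and 78.5, 58.8 and 32.3 CPM in the vehicle library. The helicase genes had low over high ratios of 1.61 to 2.04 in WQ-2101 and 2.18 to 2.63 in vehicle. Mcm3, for example, had 154, 114 and 81.0 CPM in the WQ-2101 library and 209, 154 and 79.3 CPM in the vehicle library. Pcna nearly held its level in the middle tertile, with 222, 208 and 128 CPM in the WQ-2101 library and 259, 252 and 122 CPM in the vehicle library.

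The 6 members highest in the middle tertile in both libraries were Rrm1, Rrm2, Tyms, Cdc45 and the purine enzymes Pfas and Impdh2. Impdh2 was nearly level between the low and middle tertiles, with 179.0 and 179.4 CPM in WQ-2101 and 189.4 and 191.3 CPM in vehicle. Pfas had 19.9 and 23.1 CPM in these tertiles of WQ-2101 and 19.6 and 20.6 CPM in those of vehicle. Rrm2 had 50.1, 54.5 and 41.7 CPM in the WQ-2101 library and 67.5, 84.1 and 47.6 CPM in the vehicle library. Rrm1 had 108, 136 and 113 CPM in the WQ-2101 library and 114, 158 and 127 CPM in the vehicle library. It was the only member whose high tertile exceeded its low tertile in both libraries, with a low over high ratio of 0.953 (0.909 to 1.000) in WQ-2101 and 0.900 (0.858 to 0.944) in vehicle. Of the ring-building enzymes, Paics and Umps were the most unequal, with low over high ratios of 1.47 (1.41 to 1.53) in WQ-2101 and 1.65 (1.58 to 1.72) in vehicle for Paics, and 1.47 (1.36 to 1.58) in WQ-2101 and 1.57 (1.45 to 1.70) in vehicle for Umps. Gmps and Prps1 were nearly level, at 1.06 (1.02 to 1.11) in WQ-2101 and 1.09 (1.05 to 1.13) in vehicle for Gmps, and 1.05 (0.972 to 1.13) in WQ-2101 and 1.03 (0.955 to 1.11) in vehicle for Prps1.

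**Figure D3:**
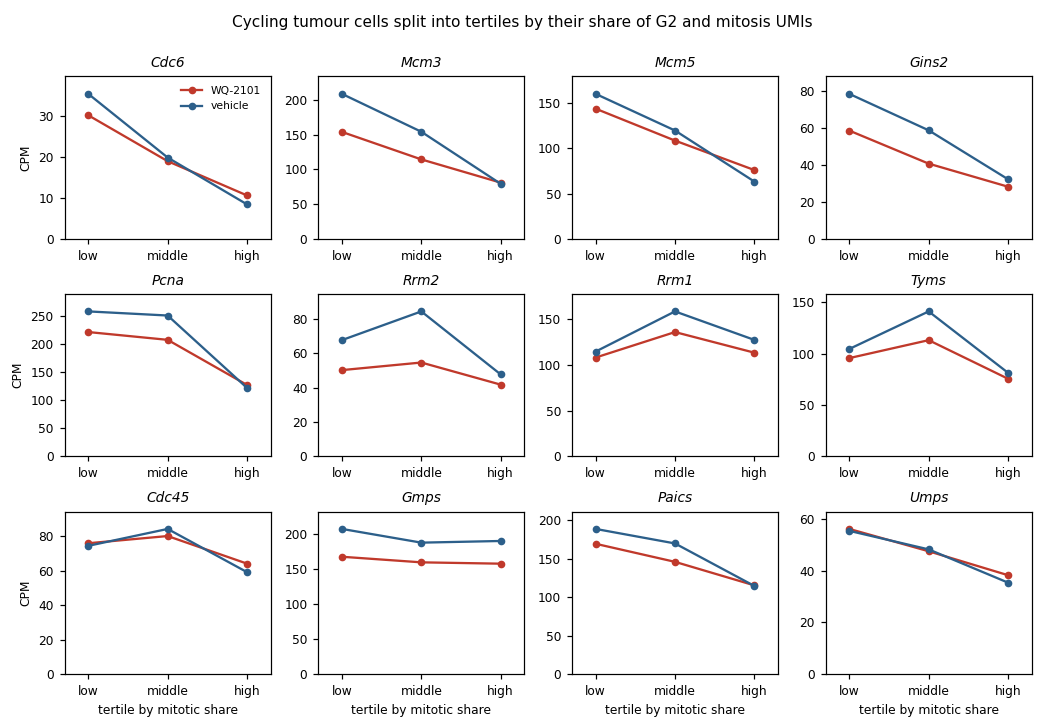
Level (CPM, axis from 0) of 12 members in cycling tumour cells, in tertiles of rising share of G2 and mitosis UMIs, in the WQ-2101 (red) and vehicle (blue) libraries. Cdc6 and Mcm3 fall from the low to the high tertile, Rrm1 and Tyms peak in the middle tertile, and Gmps is nearly level.

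The comparison of WQ-2101 with vehicle asks whether nucleotide or replication genes moved when the compound tied to PHGDH inhibition was given. In tumour cells no member reached 1.5-fold in CPM plus 5. In cycling cells 0 of 32 were higher and 0 lower, against 1.48% of all genes in either direction, and in non-cycling cells 0 of 31 tested members were higher and 0 lower, against 1.43%. The small differences leaned downwards: in cycling cells 25 of 32 members were below 0 with a median log2 ratio of -0.13, and in non-cycling cells 24 of 31 with a median of -0.10, while the medians of all genes were -0.02 and -0.04. Phgdh itself had 280.4 CPM in the WQ-2101 library and 306 CPM in the vehicle library in cycling tumour cells, and 217 CPM in the WQ-2101 library and 243 CPM in the vehicle library in non-cycling ones, which checks no label, since the compound is tied to the enzyme and not to its transcript.

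Rrm2 had the lowest ratio of WQ-2101 over vehicle in cycling tumour cells, with 48.6 CPM in the WQ-2101 library and 66.0 CPM in the vehicle library, a ratio of 0.736 (0.708 to 0.765), from 4567 and 5683 UMIs. The other genes of deoxynucleotide supply were nearer to the vehicle level, with ratios of 0.890 (0.867 to 0.914) for Rrm1, 0.869 (0.844 to 0.895) for Tyms and 0.881 (0.869 to 0.894) for Nme1. Gins2 had 41.8 CPM in the WQ-2101 library and 55.2 CPM in the vehicle library, a ratio of 0.757 (0.725 to 0.790). Its partner Gins1 was close to vehicle, with 23.5 CPM in the WQ-2101 library and 22.8 CPM in the vehicle library, a ratio of 1.03 (0.966 to 1.09). Cdc45, Pola1 and Cdc6 were close as well, at 1.01 (0.977 to 1.05) for Cdc45, 0.985 (0.964 to 1.01) for Pola1 and 0.951 (0.890 to 1.02) for Cdc6. Pcna and Hells lay between, at 0.886 (0.867 to 0.905) for Pcna and 0.879 (0.856 to 0.903) for Hells.

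Subunits of the helicase differed among themselves. Mcm3 had 115 CPM in the WQ-2101 library and 144 CPM in the vehicle library, a ratio of 0.798 (0.777 to 0.819) in cycling tumour cells, and 50.3 and 67.5 CPM, 0.745 (0.685 to 0.810) in non-cycling ones. Mcm6 was likewise lower in both states, at 0.851 (0.830 to 0.872) in cycling and 0.758 (0.711 to 0.808) in non-cycling cells. Mcm7 and Mcm5, which act in the same ring, stood close to vehicle: Mcm7 had 129.8 CPM in the WQ-2101 library and 129 CPM in the vehicle library, a ratio of 1.01 (0.979 to 1.03), and Mcm5 a ratio of 0.965 (0.939 to 0.993). Mcm2 and Mcm4 had cycling ratios of 0.889 (0.855 to 0.923) for Mcm2 and 0.922 (0.893 to 0.952) for Mcm4, and the non-cycling ratio of Mcm4 was 0.803 (0.728 to 0.885).

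Purine enzymes showed the same mixture. Gmps had 162 CPM in the WQ-2101 library and 195 CPM in the vehicle library, a ratio of 0.830 (0.812 to 0.848). Atic, which closes the purine ring, had 113 CPM in the WQ-2101 library and 137 CPM in the vehicle library, a ratio of 0.829 (0.807 to 0.851). Ppat, the committed step, had 44.7 CPM in the WQ-2101 library and 54.2 CPM in the vehicle library, a ratio of 0.826 (0.792 to 0.861). Their non-cycling ratios were 0.864 (0.821 to 0.908) for Gmps, 0.895 (0.840 to 0.954) for Atic and 0.763 (0.687 to 0.848) for Ppat. Adsl, adenylosuccinate lyase, had the highest ratio in cycling tumour cells, with 33.2 CPM in the WQ-2101 library and 30.4 CPM in the vehicle library, a ratio of 1.09 (1.04 to 1.15). Prps2 had the highest in non-cycling cells, with 17.4 CPM in the WQ-2101 library and 13.6 CPM in the vehicle library, a ratio of 1.28 (1.09 to 1.5), and is uncertain because its paralogue Prps1 may share reads with it. Gart, which carries several steps of the pathway in 1 protein, had a cycling ratio of 0.888 (0.853 to 0.926) and Paics of 0.914 (0.892 to 0.936). Prps1, Prps2, Pfas, Impdh1 and Impdh2 had cycling ratios of 0.919 to 1.08. Among pyrimidine enzymes, Ctps had 73.3 CPM in the WQ-2101 library and 85.9 CPM in the vehicle library, a ratio of 0.854 (0.826 to 0.883), while Cad and Umps stood at 1.02 (0.975 to 1.07) for Cad and 1.02 (0.981 to 1.07) for Umps. Dhodh had a cycling ratio of 0.890 (0.837 to 0.945).

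**Figure D4:**
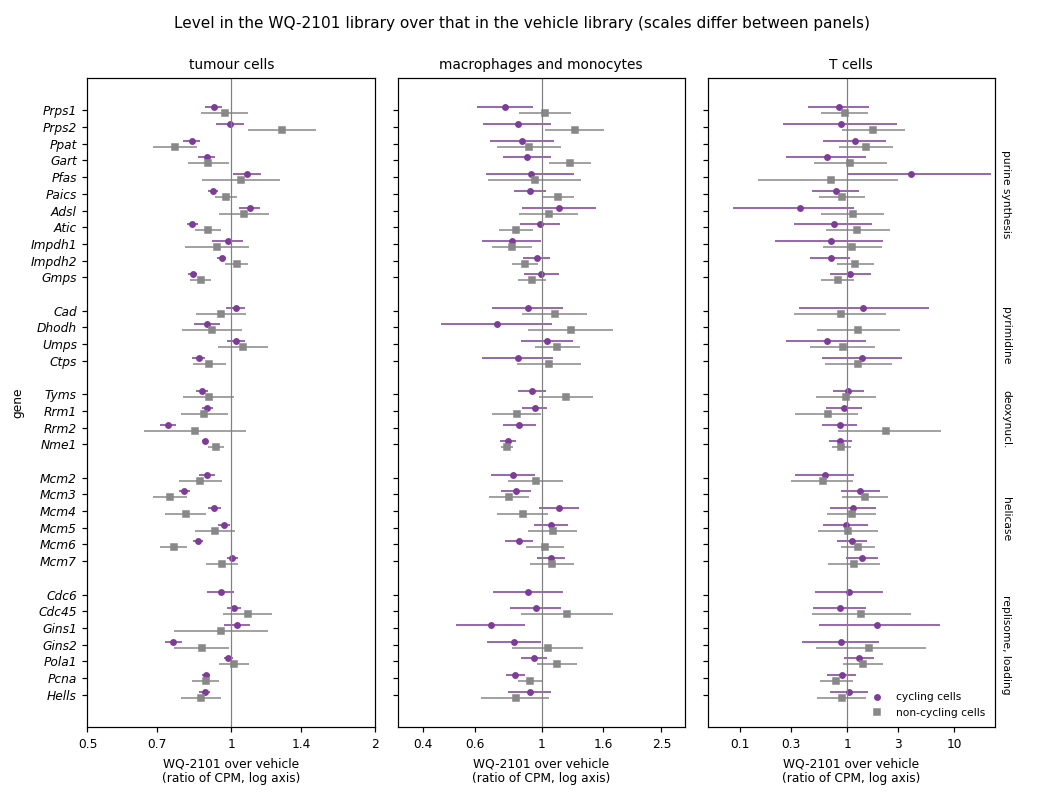
Level in the WQ-2101 library over that in the vehicle library for each gene with a mean of at least 5 CPM, in cycling (purple circles) and non-cycling (grey squares) cells of 3 classes, on log axes that differ between panels. Bars are 95% counting intervals. In tumour cells every point lies between 0.736 (Rrm2, cycling) and 1.28 (Prps2, non-cycling).

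The lists beside the members gave no count past 1.5-fold in cycling tumour cells: 0 of 33 other nucleotide genes, 0 of 48 other replication genes, 0 of 19 genes of G2 and mitosis and 0 of 23 regulators such as E2F factors and cyclins, with medians of -0.10, -0.10, -0.11 and -0.09. In non-cycling tumour cells the lists had medians of -0.04, -0.13, 0.36 and -0.08, and 2 of 14 G2 and mitosis genes passed 1.5-fold. These were Ube2c, which helps to degrade mitotic proteins, with 35.1 CPM in the WQ-2101 library and 16.3 CPM in the vehicle library, and Birc5, a chromosome passenger protein, with 20.5 CPM in the WQ-2101 library and 11.8 CPM in the vehicle library. The cells without an Mki67 or Top2a UMI thus still held mitotic transcripts, and in WQ-2101 these cells were shallower (median 10027 UMIs, against 11858 in vehicle). The part of depth in this was not tested.

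Within tertiles of cycling tumour cells, helicase genes did not keep the same order of libraries throughout. In the low tertile Mcm3 had 154 CPM in WQ-2101 and 209 CPM in vehicle, whereas in the high tertile it had 81.0 and 79.3 CPM. Mcm5 had 144 and 159.9 CPM in the low tertile, and 76.0 and 63.3 CPM in the high tertile, where WQ-2101 was the higher library. The low over high ratio was smaller in WQ-2101 for 6 of 6 helicase and 7 of 7 replisome genes, and for 25 of all 32. The share of all genes with a smaller ratio in WQ-2101 is not given here, so these counts are not shown to be particular to the members. Beside this, the tertiles were not alike in the sorting genes: G2 and mitosis UMIs summed to 657 CPM in WQ-2101 and 507 CPM in vehicle in the low tertile, and to 4275 and 4735 CPM in the high tertile. Median UMIs in the low tertile were 15029 in WQ-2101 and 18603 in vehicle. The part of either in the difference was not tested.

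In macrophages no member reached 1.5-fold between the libraries, with 0 of 32 higher and 0 lower in cycling cells, against 3.14% of all genes, and 0 of 29 higher and 0 lower in non-cycling cells, against 2%. The median log2 ratio was -0.12 in cycling cells, with 27 of 32 below 0, and 0.03 in non-cycling cells, with 13 of 29 below 0. Medians of all genes were 0.011 in cycling and 0.003 in non-cycling macrophages. The lists beside the members did not lean the same way in cycling macrophages: the median log2 ratio was -0.01 for other nucleotide genes, 0.01 for other replication genes, with 27 of 47 above 0, 0.32 for G2 and mitosis genes, with 17 of 19 above 0, and -0.06 for regulators. The part of the mix of cell cycle phases in the members' median was not tested. Gins1 had the lowest ratio in cycling macrophages, with 13.9 CPM in the WQ-2101 library and 20.5 CPM in the vehicle library, a ratio of 0.675 (0.516 to 0.877), from 86 and 181 UMIs. Pcna had 175 CPM in the WQ-2101 library and 214 CPM in the vehicle library, a ratio of 0.816 (0.757 to 0.880), and Prps1 a ratio of 0.752 (0.605 to 0.932). With cells thinned and called again on the thinned counts, 3 members, Cdc6, Cdc45 and Pcna, were past 1.5-fold lower in cycling macrophages, against 4.87% of all genes lower under the same calling. Nme1 was lower in both states, with 263 CPM in the WQ-2101 library and 340.1 CPM in the vehicle library, a ratio of 0.773 (0.727 to 0.821) in cycling macrophages, and 252 and 330.2 CPM, 0.762 (0.728 to 0.798) in non-cycling ones. In non-cycling macrophages the intervals of 7 members lay below 1, those of Nme1, Rrm1, Mcm3, Atic, Impdh1, Impdh2 and Pcna. The share of all genes with intervals clear of 1 is not given here, so these counts are not shown to be particular to the members. Above 1 in non-cycling macrophages lay the intervals of 3 members. These were Gart at 1.24 (1.06 to 1.46), Paics at 1.14 (1.01 to 1.28) and Prps2 at 1.29 (1.02 to 1.61), so purine enzymes went both ways. Tumour-gate genes in macrophages were also higher in WQ-2101 (values above), and the part of that in these ratios was not tested.

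In T cells 2 members were past 1.5-fold higher and 2 lower in cycling cells, of 31 tested, against 29.3% of all genes, and 2 higher and 1 lower of 30 in non-cycling cells, against 14.3%. The share among members was below that of all genes, and each of these values rested on few UMIs. In cycling T cells they were Pfas and Gins1, higher, and Adsl and Mcm2, lower, and in non-cycling T cells Rrm2 and Prps2, higher, and Mcm2, lower. Pfas had 10 UMIs in WQ-2101 and 3 in vehicle, a ratio of 3.92 (1.01 to 22.2). Adsl had 4 UMIs in WQ-2101 and 13 in vehicle, a ratio of 0.362 (0.0859 to 1.17). The counts of members past 1.5-fold in T cells also moved with the processing, between 0 and 5 higher and 1 and 10 lower in cycling cells, and between 0 and 6 higher and 0 and 3 lower in non-cycling cells. The share of all genes moved as well, between 6.33% and 24.5% higher and 5.38% and 22.8% lower in cycling cells, and between 1.28% and 15.9% higher and 1.33% and 17.4% lower in non-cycling cells. The better counted Pcna had 202 CPM in the WQ-2101 library and 226 CPM in the vehicle library, a ratio of 0.893 (0.654 to 1.22) in cycling T cells. A difference of the size seen in tumour cells was not detectable at this depth.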

How the data were processed

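Droplet 3' single-cell RNA libraries of 1 WQ-2101 and 1 vehicle tumour sample were analysed from raw UMI counts per gene and barcode, as deposited. Per the file headers the counts came from Cell Ranger 7.2.0, while Cell Ranger 2.2.2 and GRCm38 are named in the submitters' processing notes. Annotation, intron setting and cell calling: not given in the sources used here. Genes, lists and markers were chosen with earlier results of these data known.

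Barcodes with under 500 UMIs or 300 genes (6 in WQ-2101 and 22 in vehicle) and others with over 15% mitochondrial UMIs (90 and 139) were removed, as were doublets called by Scrublet in scanpy 1.11.5 (753 and 545, 4.17% and 3.83%). Median UMIs of the kept cells were 8048 and 10742.5. Cells were classed by shares of marker UMIs, with cut-offs set after the markers' distributions were seen. Cells with 1 UMI of Mki67 and Top2a were left out of both states. Counts were summed per class, state and library and given as CPM, with exact Poisson intervals and exact conditional intervals for ratios, and exact Clopper-Pearson intervals for shares, all at 95%. Log2 ratios and the 1.5-fold rule used CPM plus 5, over genes with a mean of at least 5 CPM. With 1 library per group no test was made. The 1.5-fold rule and the ratio intervals were tried on Poisson counts simulated from the tumour means. Classing of cells, the cycling call, thinning and tertiles were not simulated. All 32 members are described, and from the other lists only Phgdh and genes past 1.5-fold between libraries in tumour cells, at most 5 per list. Alternatives changed the thresholds, the gate, the classes (Leiden clusters), the depth, the pseudocount and the filter on low values.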

Additional observations from a re-analysis of the deposited data

Results flagged for a closer look

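Gart, the purine enzyme that joins several steps, had non-cycling levels in the WQ-2101 library over the vehicle library of 0.895 in tumour cells and 1.24 in macrophages, in opposite directions. The levels were 38.1 CPM in WQ-2101 and 42.5 CPM in vehicle tumour cells, and 25.0 CPM in WQ-2101 and 20.1 CPM in vehicle macrophages. The difference between the classes was not tested, and with 1 library per group it has no replicate check.

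Cells that the marker gate put in no class numbered 4651 in WQ-2101 and 2274 in vehicle, and entered no comparison. The 32 genes summed to 1990 CPM in them in WQ-2101 and to 1741 CPM in vehicle, with all states pooled. Cycling macrophages alone had 1810 CPM in WQ-2101 and 2043 CPM in vehicle, so these values are of unlike states. Of the cells in no class 1515 in WQ-2101 and 464 in vehicle were cycling. Those cycling cells summed to 568 CPM of tumour-gate and 2572 CPM of macrophage-gate genes in WQ-2101, and to 297 and 2161 CPM in vehicle.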

How the results depend on the processing

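No paired analysis was possible because each group had 1 library, and for the same reason none could be left out. Over 15 alternatives, 191 of 228 values moved by less than their counting interval and 37 by more. No median past 1.5-fold changed sign. None of the 90 medians of WQ-2101 over vehicle was among the 37. They ran between -0.16 and -0.10 in cycling and between -0.14 and -0.02 in non-cycling tumour cells, between -0.20 and -0.10 in cycling macrophages, and took both signs in non-cycling macrophages (-0.11 to 0.17), cycling T cells (-0.21 to 0.10) and non-cycling T cells (-0.18 to 0.17). No member passed 1.5-fold between libraries in tumour cells under any of them.

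Values that moved are given for WQ-2101 and then vehicle, with the cause not tested. Cycling shares at 4 or more UMIs were 50.2% and 49.7% of tumour cells, 13.0% and 11.6% of macrophages and 10.7% and 10.4% of T cells. At 1 or more UMIs they were 78.6% and 73.4%, 40.1% and 37.8%, and 26.7% and 32.1%, and the vehicle macrophage median of cycling over non-cycling cells was 0.70. By Cdk1, Birc5, Ube2c and Cenpf the tumour shares were 69.1% and 63.4%. Thinned to 3000 UMIs, shares were 39.2% and 35.2% of tumour cells, 14.4% and 10.6% of macrophages, and 26.7% and 20.4% of T cells, the T cell values after 270 of 450 and 207 of 433 cells were left out as too shallow, and the WQ-2101 tumour median was 0.72. A stricter gate gave 61.1% and 57.7% of tumour cells and 17.4% and 16.0% of macrophages, and Leiden clusters 59.8% and 58.4% of tumour cells and 18.3% of WQ-2101 macrophages. With the state called from thinned counts, chosen after seeing the data, the tumour medians were 0.38 and 0.39. With a pseudocount of 20 the tumour medians were 0.47 and 0.48 and the macrophage medians 0.53 and 0.70, and with a mean of at least 20 CPM the macrophage medians were 1.37 and 1.32.

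In cycling tumour cells every member had at least 1435 UMIs in WQ-2101 and 1337 in vehicle, and in cycling T cells at least 1 and 3. Intervals cover counting error only. Nothing here separates the compound from the animals, the dissociation or the library, which cannot be told apart with 1 library per group. CPM levels are shares of each class's RNA, so a change in total RNA per cell is not seen.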
